A study of Arabidopsis thaliana with 6 samples.

Results

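The glycine cleavage system of *Arabidopsis thaliana* was followed through 9 genes, *GLDP1*, *GLDP2*, *GLDT*, *GDH1*, *GDH2*, *GDH3*, *mtLPD1*, *mtLPD2* and *SHM1*, of 32833 genes listed in the deposited values. They are all of the P-, T-, H- and L-protein genes considered here, together with the mitochondrial serine hydroxymethyltransferase that works beside them. The 9 genes were chosen from knowledge of the pathway after the genotype differences in these libraries had been seen, so the difference of each gene between genotypes is given below as a description, without a test. RNA was sequenced from anthers of Col-0, the wild type, and of *ice1-2*, which carries a T-DNA in the third exon of *ICE1*, a gene for a bHLH transcription factor, in the Col-0 background and is labelled as homozygous. Plants of both genotypes were grown in a greenhouse under 16 h light and 8 h dark at 22 °C, and the labels give anther stages 9 to 13. The methods of the study name these as flower stages. Each genotype has 3 libraries, A, B and C, and *ice1-2* stands for 1 insertion line. Whether separate plants gave the libraries of a genotype is not stated in the sources used here. Each p below therefore measures only the spread between these 6 libraries, which may be technical.

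The glycine cleavage system is a mitochondrial enzyme complex. The P protein removes the carboxyl group of glycine and passes the remaining aminomethyl group to a lipoyl arm on the H protein, the T protein releases ammonia and hands the carbon to tetrahydrofolate, and the L protein, a dihydrolipoamide dehydrogenase, reoxidizes the arm. SHM1 then joins that carbon to a second glycine to make serine. In green leaves the complex is best known as the mitochondrial step of photorespiration, whereas in all tissues it also feeds one-carbon metabolism.

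Levels are FPKM, fragment numbers that the authors scaled for transcript length and library size. Where 3 values of a genotype are listed, they stand in the order of libraries A, B and C. A rough depth read from the steps between low FPKM values was 22.3 to 27.3 M fragments (M, mega) in Col-0 and 5.9, 19.7 and 14.4 M in *ice1-2*, with 25.6% to 46.1% of the low values within 0.05 of a whole fragment, where 10% would be by chance. Each depth was picked as about the lowest with a share well above that 10%, so the share is no test of it. Multiples of a depth would fit as well. At the depths given, *GDH1*, the gene with the fewest fragments in every library, rested on about 128 fragments in *ice1-2* A, a counting error of 8.83%, and on about 245 to 830 in the others. *ICE1* (AT3G26744) itself stood at 12.7, 9.25 and 14.0 FPKM in Col-0 against 12.9, 15.4 and 21.5 FPKM in *ice1-2* (log2 fold change 0.44, SE 0.24, Benjamini-Hochberg (BH) adjusted p = 0.323 from limma). With 1 value per gene and the insertion inside the gene, the level alone cannot show whether the labels are right, and *ice1-2* below means the libraries labelled so.

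The P protein, the pyridoxal phosphate enzyme that decarboxylates glycine, has a pair of genes, of which *GLDP1* differed more between genotypes. *GLDP1* (AT4G33010, chromosome 4, 15926652 to 15931422 in TAIR10.1, minus strand, 14 exons) measured 16.8, 10.9 and 11.0 FPKM in Col-0 and 26.3, 25.6 and 36.2 FPKM in *ice1-2*. All 3 *ice1-2* libraries lay above all 3 Col-0 libraries, and the means were 12.9 ± 3.36 and 29.4 ± 5.93 (SD, n = 3 each), a ratio of 2.27. *GLDP2* (AT2G26080, chromosome 2, 11109003 to 11114291, minus strand, 15 exons) measured 25.7, 23.7 and 26.3 FPKM in Col-0 and 28.1, 32.6 and 43.4 FPKM in *ice1-2*. Its groups also did not overlap, but the gap was narrow at *ice1-2* A, and the means of 25.2 ± 1.35 and 34.7 ± 7.89 (SD, n = 3 each) differed 1.38-fold. In bulk anthers, more cells of a type and more RNA per cell cannot be told apart, for these and all genes below. The coding sequences of *GLDP1* and *GLDP2* were 85.6% identical, with a longest shared run of 54 bases and no stretch of 100 bases, the read length, in common. *GLDP1* shares 14 bases with its neighbour AT4G33000 on the other strand, and strand use in counting is not stated in the sources used here.

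The 250 bases before the annotated starts of both P-protein genes are shown because the genes encode the same subunit and differ in level. They are RefSeq sequence of TAIR10.1, written 5′ to 3′ on the gene's strand, with capitals for the G-box CACGTG in *GLDP1* and the I-box GATAAG in *GLDP2*, motifs described in promoters of plant light-regulated genes. *GLDP1* lies at chr4:15931423-15931672 and *GLDP2* at chr2:11114292-11114541.
GLDP1: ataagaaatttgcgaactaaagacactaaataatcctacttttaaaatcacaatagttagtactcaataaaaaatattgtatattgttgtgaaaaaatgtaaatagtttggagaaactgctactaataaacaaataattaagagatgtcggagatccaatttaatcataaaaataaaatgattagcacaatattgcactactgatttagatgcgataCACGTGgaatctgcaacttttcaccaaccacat
GLDP2: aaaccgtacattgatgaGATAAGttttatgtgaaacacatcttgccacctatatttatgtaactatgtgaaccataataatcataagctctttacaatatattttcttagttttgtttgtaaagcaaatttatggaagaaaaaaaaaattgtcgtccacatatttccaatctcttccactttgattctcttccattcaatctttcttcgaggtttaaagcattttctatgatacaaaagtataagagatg
Counted from -1 at the base before the start, the G-box of *GLDP1* begins at position -33 and the I-box of *GLDP2* at position -233. In windows from 250 bases before to 50 bases after the start, searched on both strands, 7.68% of 27443 promoters hold a G-box and 14.6% an I-box, and 1 of the 9 genes holds each. The presence of these letters describes the sequence and names no factor.

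The T protein, the aminomethyltransferase that loads tetrahydrofolate, has 1 gene, *GLDT* (AT1G11860, chromosome 1, 4001113 to 4003748, plus strand, 4 exons). Its FPKM was 35.3, 35.3 and 34.8 in Col-0 and 52.8, 76.6 and 75.2 in *ice1-2*. The Col-0 libraries were close to each other (35.1 ± 0.255, SD, n = 3), and the *ice1-2* libraries lay above them with a wider spread (68.2 ± 13.4, SD, n = 3), *ice1-2* A being the lowest of these. The ratio of the means was 1.94.

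The H protein, the small lipoylated carrier that moves the intermediate between the other subunits, has 3 genes, and these included both the largest and one of the smaller differences among the 9. *GDH3* (AT1G32470, chromosome 1, 11739304 to 11740399, minus strand, 4 exons) measured 22.8, 16.1 and 21.1 FPKM in Col-0 and 40.1, 79.4 and 61.9 FPKM in *ice1-2*. *GDH3* had the highest ratio of means among the 9 genes, 3.02 (20.0 ± 3.46 and 60.4 ± 19.7, SD, n = 3 each), and *ice1-2* A was the lowest and *ice1-2* B the highest of its *ice1-2* libraries. *GDH1* (AT2G35370, *GDCH* in RefSeq, chromosome 2, 14891041 to 14892298, plus strand, 4 exons) measured 15.4, 11.7 and 11.6 FPKM in Col-0 and 23.0, 44.6 and 35.3 FPKM in *ice1-2*. Its libraries followed those of *GDH3* in *ice1-2*, lowest in A and highest in B, and its means of 12.9 ± 2.16 and 34.3 ± 10.8 (SD, n = 3 each) differed 2.66-fold. *GDH2* (AT2G35120, chromosome 2, 14805639 to 14807406, minus strand, 3 exons) measured 53.2, 64.3 and 44.2 FPKM in Col-0 and 68.4, 92.4 and 77.9 FPKM in *ice1-2*. *GDH2* was the H-protein gene with the highest level in every library, and the lowest *ice1-2* library was only slightly above the highest Col-0 library. Its means were 53.9 ± 10.1 and 79.5 ± 12.1 (SD, n = 3 each), a ratio of 1.48. *GDH1* and *GDH3* are the closer relatives by sequence, with 88.2% identity of the coding bases, against 69.5% for *GDH1* and *GDH2* and 70.1% for *GDH2* and *GDH3*. None of the 3 pairs shares a stretch of 100 bases. *GDH3* overlaps AT1G32460 by 23 bases on the other strand and AT1G06573 by 16 bases on its own strand, so a few fragments may belong to those genes.

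The sequences before the H-protein starts are shown because *GDH1* and *GDH3* differed more between genotypes than *GDH2*. Capitals mark each E-box CANNTG, a short core bound by bHLH proteins as a class, of which the G-box is 1 form. *GDH1* lies at chr2:14890791-14891040 on the plus strand, and *GDH2* at chr2:14807407-14807656 and *GDH3* at chr1:11740400-11740649 on the minus strand.
GDH1: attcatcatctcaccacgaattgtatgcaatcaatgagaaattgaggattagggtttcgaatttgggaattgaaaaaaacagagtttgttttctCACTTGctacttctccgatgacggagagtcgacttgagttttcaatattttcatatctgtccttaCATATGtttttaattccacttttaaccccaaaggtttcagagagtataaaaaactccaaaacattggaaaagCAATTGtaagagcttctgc
GDH2: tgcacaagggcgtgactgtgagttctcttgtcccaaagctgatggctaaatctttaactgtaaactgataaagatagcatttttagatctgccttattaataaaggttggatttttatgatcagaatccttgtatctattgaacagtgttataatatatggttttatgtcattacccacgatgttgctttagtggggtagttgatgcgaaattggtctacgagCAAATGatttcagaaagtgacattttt
GDH3: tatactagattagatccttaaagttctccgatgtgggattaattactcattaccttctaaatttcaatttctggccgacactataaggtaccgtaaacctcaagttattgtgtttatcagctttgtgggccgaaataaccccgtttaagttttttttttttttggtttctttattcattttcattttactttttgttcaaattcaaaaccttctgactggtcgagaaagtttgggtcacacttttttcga
*GDH1* has 3 E-boxes in the stretch shown, beginning at positions -156, -91 and -19, and a further 1 begins at base 39 from the start. *GDH2* has 1, at position -27, and *GDH3* has 0 in the whole window. An E-box stands in the window of 8 of the 9 genes and of 61.7% of all promoters. Sequence farther upstream was not searched, and binding by any factor was not tested.

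The L protein has a pair of mitochondrial genes, and it is the only subunit that the complex shares with the pyruvate, 2-oxoglutarate and branched-chain 2-oxoacid dehydrogenases. *mtLPD1* (AT1G48030, chromosome 1, 17716893 to 17719500, minus strand, 2 exons) measured 29.5, 25.8 and 25.6 FPKM in Col-0 and 29.9, 39.0 and 38.4 FPKM in *ice1-2*. The groups did not overlap, yet *ice1-2* A was almost level with Col-0 A, and the means of 26.9 ± 2.21 and 35.8 ± 5.10 (SD, n = 3 each) differed 1.33-fold. *mtLPD2* (AT3G17240, chromosome 3, 5889663 to 5892332, minus strand, 3 exons) measured 36.4, 31.8 and 31.1 FPKM in Col-0 and 28.9, 36.5 and 37.5 FPKM in *ice1-2*. *mtLPD2* was the 1 gene of the 9 whose groups overlapped, with *ice1-2* A below every Col-0 library and the means, 33.1 ± 2.91 and 34.3 ± 4.73 (SD, n = 3 each), within 1 SD of each other. The coding sequences of the pair are 83.6% identical and share no stretch of 100 bases.

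*SHM1* (AT4G37930, chromosome 4, 17831731 to 17835017, minus strand, 15 exons), the mitochondrial serine hydroxymethyltransferase that takes up the carbon released by the complex, measured 51.3, 46.0 and 49.0 FPKM in Col-0. In *ice1-2* A, B and C its FPKM was 100.0, 127 and 147. The lowest *ice1-2* library was thus well above the highest Col-0 library, and the means were 48.8 ± 2.65 and 125 ± 23.5 (SD, n = 3 each), a ratio of 2.55. In order of mean FPKM among the 18858 genes tested, *SHM1* stood at place 1978 in Col-0 and at place 777 in *ice1-2*.

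**Figure D1:**
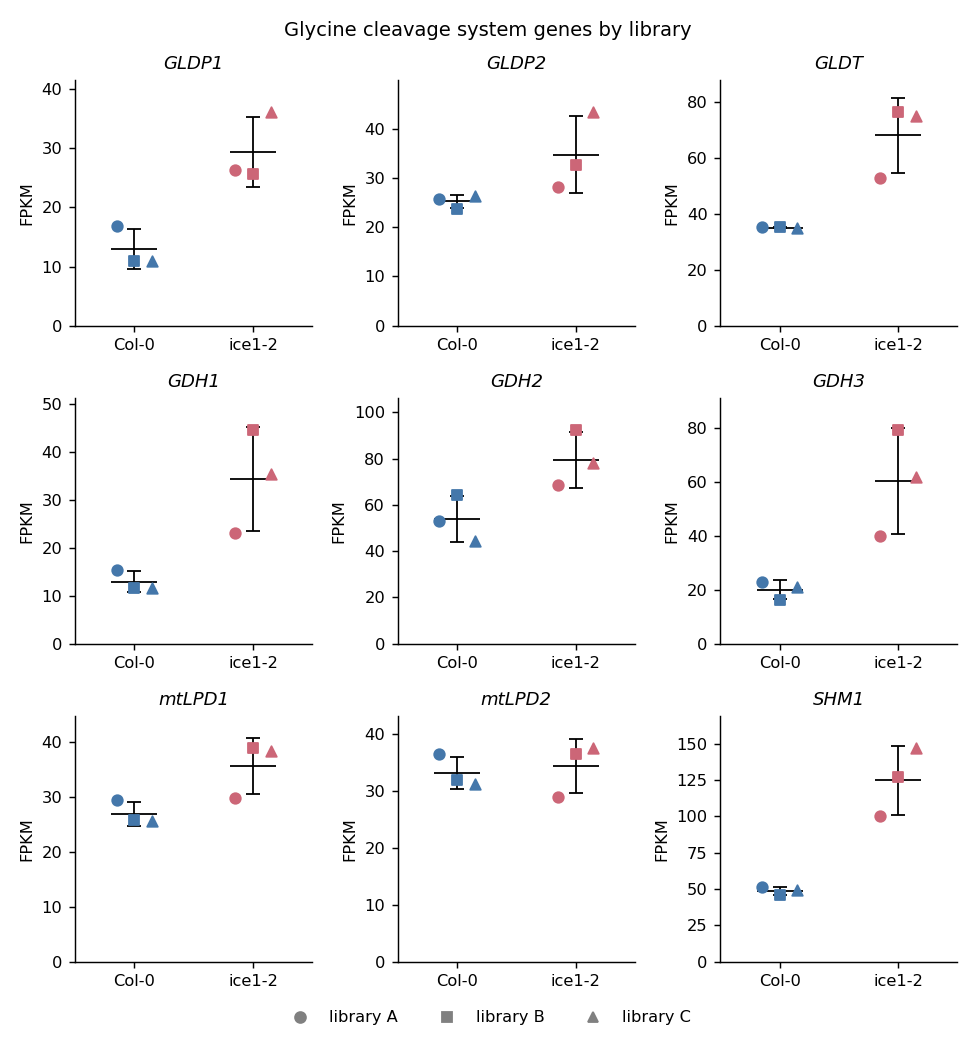
FPKM of each of the 9 genes in each library, with 1 panel per gene on its own linear axis from 0, library letters as symbols, a line at the mean and bars of 1 SD (n = 3). The *ice1-2* points lie above all Col-0 points in 8 panels, and *mtLPD2*, at means of 33.1 and 34.3, overlaps.

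In Col-0 the order of mean FPKM was *GDH2*, *SHM1*, *GLDT*, *mtLPD2*, *mtLPD1*, *GLDP2*, *GDH3*, *GLDP1* and *GDH1*, from 53.9 to 12.9. Neighbours in that order were separated without overlap of their libraries only between *SHM1* and *GLDT*, between *mtLPD2* and *mtLPD1* and between *GLDP2* and *GDH3*. In *ice1-2* the order was *SHM1*, *GDH2*, *GLDT*, *GDH3*, *mtLPD1*, *GLDP2*, *GDH1*, *mtLPD2* and *GLDP1*, from 125 to 29.4. There, only *SHM1* and *GDH2*, and *GDH3* and *mtLPD1*, were neighbours without overlap, so the ranges of neighbours among the last 5 genes, all between means of 29.4 and 35.8, overlapped. *GDH3* moved from the seventh to the fourth place, and the L-protein genes and *GLDP2* made up the low end of the *ice1-2* order together with *GDH1* and *GLDP1*.

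The levels of genes for the same subunit were compared within each library, a measure that neither the choice of the 9 genes nor the genotype contrast had used. Of 5 such pairs, 4 had the same order in 6 of 6 libraries, by an exact two-sided sign-flip permutation test on the log2(FPKM + 0.5) difference whose smallest possible p with 6 libraries is 0.0312. The test cannot tell a difference in level from an FPKM bias of 1 gene that recurs in every library. The 3 H-protein pairs share genes and are not independent results. *GLDP2* was 1.51-fold above *GLDP1* (mean log2 difference 0.60, SD 0.46, exact p = 0.0312, BH-adjusted over the 5 pairs p = 0.0391, n = 6). *GDH2* was 3.09-fold above *GDH1* (mean log2 difference 1.63, SD 0.51) and 1.89-fold above *GDH3* (0.92, SD 0.64), and *GDH3* was 1.63-fold above *GDH1* (0.71, SD 0.17), each with the same exact p and adjusted p. These folds pool both genotypes: *GLDP2* over *GLDP1* was 1.95 in Col-0 and 1.17 in *ice1-2*, *GDH2* over *GDH1* 4.04 and 2.36, *GDH2* over *GDH3* 2.65 and 1.35, and *GDH3* over *GDH1* 1.53 and 1.74. *GDH1* and *GDH3*, the closest pair by sequence, thus kept the most even ratio of the 3 H-protein pairs, with log2 differences from 0.45 to 0.83, and within *ice1-2* from 0.79 to 0.82. For *mtLPD2* and *mtLPD1* no order was found over the 6 libraries (mean log2 difference 0.12, SD 0.19, higher in 3 of 6, exact permutation p = 0.25, adjusted p = 0.25). *mtLPD2* was the higher of that pair in 3 of 3 Col-0 libraries (log2 difference 0.28 to 0.30) and the lower in 3 of 3 *ice1-2* libraries (-0.10 to -0.03).

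The share of each gene in its subunit's summed FPKM does not depend on how libraries are scaled against each other, and it is given here as a description because it draws on the genotype contrast. *GLDP1* made up 39.6%, 31.6% and 29.6% of P-protein FPKM in Col-0 and 48.4%, 43.9% and 45.5% in *ice1-2*. Its share was higher in every *ice1-2* library, and *GLDP2* remained the larger part in each. *GDH2* made up 58.2%, 69.8% and 57.5% of H-protein FPKM in Col-0 and 52.0%, 42.7% and 44.5% in *ice1-2*. *GDH2* thus kept the largest share in every library, but in *ice1-2* B and C *GDH1* and *GDH3* together exceeded it. In those libraries *GDH3* held 36.7% and 35.3%, against 17.5% to 27.4% over the Col-0 libraries. *GDH1* held 12.7% to 16.9% in Col-0 and 17.5% to 20.6% in *ice1-2*. *mtLPD1* made up 44.7%, 44.8% and 45.1% of L-protein FPKM in Col-0 and 50.9%, 51.7% and 50.6% in *ice1-2*, the narrowest spread within a genotype among the shares of the 3 subunits.

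**Figure D2:**
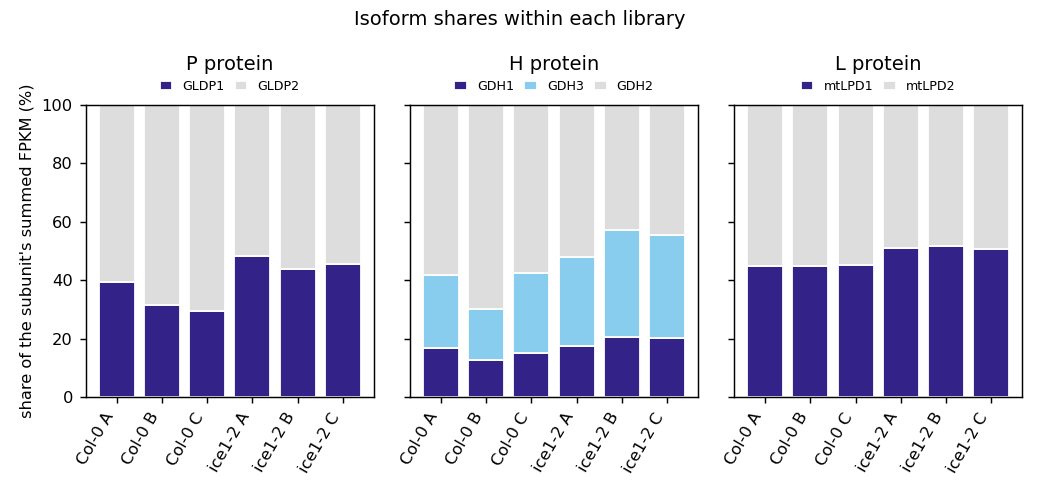
Share in percent of the summed FPKM of the P, H and L proteins (1 panel each) held by each gene in each of the 6 libraries, shown as stacked bars from 0 to 100%. The *GDH2* share is 57.5% to 69.8% in the Col-0 bars and 42.7% to 52.0% in the *ice1-2* bars.

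Summed over its genes, each subunit had its own range. The P protein summed to 34.7 to 42.5 FPKM in Col-0 and 54.4 to 79.6 in *ice1-2*, and the H protein to 77.0 to 92.2 and 131 to 216. The H protein, with the shortest transcripts, was the subunit with the highest sum in every library. The L protein summed to 56.7 to 65.9 FPKM in Col-0 and 58.8 to 76.0 in *ice1-2*, and its groups overlapped, unlike those of P, T, H and *SHM1*. Within a library, the ratio of H- to L-protein FPKM was 1.36 to 1.60 in Col-0 and 2.24 to 2.86 in *ice1-2*, that of T to L 0.535 to 0.615 and 0.898 to 1.01, and that of P to L 0.603 to 0.658 and 0.770 to 1.05. The glycine-specific subunits thus stood higher relative to the shared L protein in each *ice1-2* library than in any Col-0 library. The ratio of H to P overlapped between genotypes (2.06 to 2.66 and 2.20 to 3.72), as did that of T to P (0.830 to 1.02 and 0.945 to 1.32). All 9 genes together summed to 255 to 286 FPKM in Col-0 and 397 to 553 in *ice1-2*. *SHM1* was 1.21 to 1.33 times the P-protein sum in Col-0 and 1.84 to 2.18 times it in *ice1-2*.

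On the log2(FPKM + 0.5) scale, the differences between *ice1-2* and Col-0 in the fit of all genes were 1.53 for *GDH3* (SE 0.27), 1.34 for *GDH1* (SE 0.26), 1.33 for *SHM1* (SE 0.20) and 1.16 for *GLDP1* (SE 0.23). They were 0.93 for *GLDT* (SE 0.20), 0.56 for *GDH2* (SE 0.21), 0.43 for *GLDP2* (SE 0.20), 0.40 for *mtLPD1* (SE 0.18) and 0.04 for *mtLPD2* (SE 0.18). The first 4 genes and *GLDT* thus form the upper part, and the L-protein genes the lower end. All 9 genes passed the filter on low values, and their median difference was 0.93, beside 0.15 over the 18858 genes tested. With libraries scaled by the median of ratios, the median over all genes was -0.01 and that of the 9 genes 0.75, and *mtLPD2* changed sign to -0.13 while the other 8 stayed above 0. By the limits of the study (log2 fold change over 1 and adjusted p under 0.05), 4 of the 9 genes were called higher, *GDH3*, *GDH1*, *SHM1* and *GLDP1*, where 1.54% of all genes tested were. In 8 of the 9 genes every *ice1-2* library was above every Col-0 library, as in 19.8% of all genes, and in 0 of the 9 every one was below, as in 7.39%. These counts describe genes picked with this contrast known, and nothing is read from their share. The number called among the 9 fell to 0 when library B or library C of either genotype was left out, and was 4 when library A of either genotype was left out. It was 2 after median-ratio scaling and 0 without the filter on low values.

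**Figure D3:**
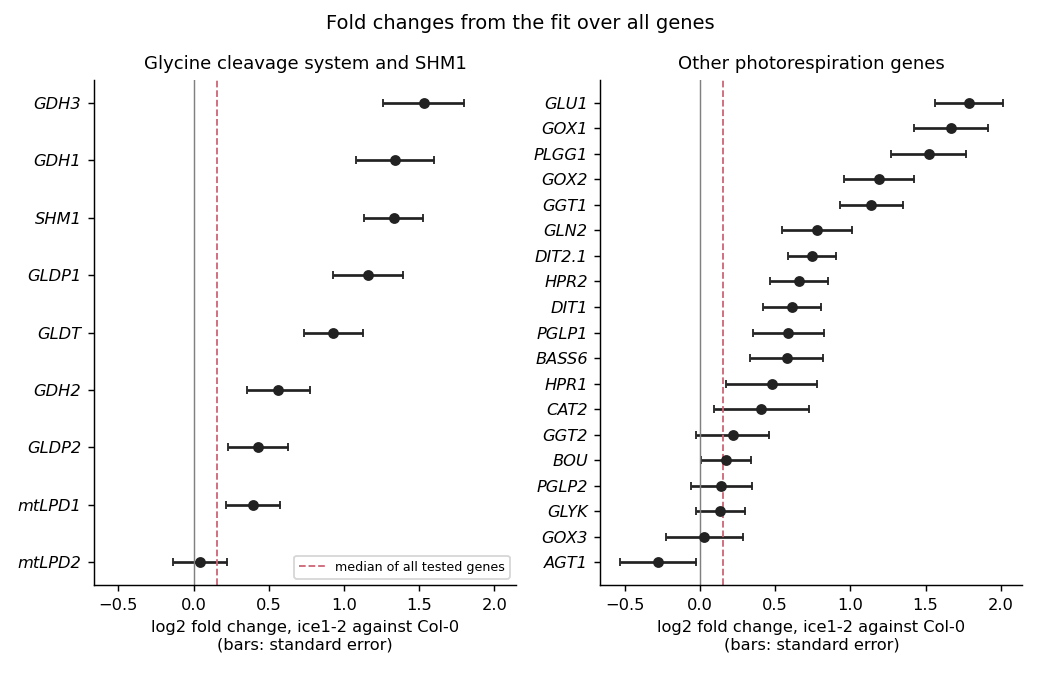
Difference between *ice1-2* and Col-0 on the log2(FPKM + 0.5) scale, with points for the estimate, bars of 1 SE and a dashed line at the median of all tested genes (0.15), for the 9 genes (left panel) and the 19 other photorespiration genes (right panel). *GDH3* stands at 1.53 and *mtLPD2* at 0.04 on the left, and *GLU1* at 1.79 and *AGT1* (AT2G13360) at -0.28 on the right.

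Of the 5 genes outside the 9 whose course over the 6 libraries was nearest to the mean course of the 9, measured as the root mean square difference of centred log2(FPKM + 0.5), the first was *emb2184* (AT1G75350, annotated as ribosomal protein L31). Its difference was 0.0366 on that log2 scale, smaller than that of any of the 9 genes themselves, of which *GLDT* was nearest at 0.0774 and *mtLPD2* farthest at 0.409. *emb2184* measured 35.5, 31.7 and 32.1 FPKM in Col-0 and 50.9, 68.5 and 66.2 FPKM in *ice1-2*. The other 4 were *NPC6* (AT3G48610, annotated as a non-specific phospholipase C) at 0.0499, AT1G15260 at 0.0561, AT3G62530, annotated as an ARM repeat protein, at 0.0569, and *PTAC5* (AT4G13670, annotated as plastid transcriptionally active) at 0.0587. Likeness over 6 libraries in 2 groups describes these libraries only.

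Around the complex, photorespiration runs from 2-phosphoglycolate in the chloroplast through glycine in the peroxisome to serine and back, and 19 enzymes and carriers of that route other than the 9 genes were all measured. In the fit of all genes, 5 of the 19 were higher in *ice1-2* at an adjusted p under 0.05 and 0 were lower, beside 1.62% and 0.27% of all genes, and 14 did not pass. Their median log2 difference was 0.59 (0.42 after median-ratio scaling), and 10 of the 19 had every *ice1-2* library above every Col-0 library, beside 19.8% of all genes. *GLU1* (AT5G04140), the leaf ferredoxin-dependent glutamate synthase that acts in the route recapturing ammonia, measured 1.49, 1.08 and 1.00 FPKM in Col-0 and 4.24, 5.84 and 5.91 FPKM in *ice1-2* (log2 fold change 1.79, SE 0.23, BH-adjusted p = 0.0197 from limma). *GLU1* was low in both genotypes, and its groups were far apart for that level. *GOX1* (AT3G14420), a peroxisomal glycolate oxidase, rose from 11.0 ± 3.23 to 35.6 ± 7.31 FPKM (SD, n = 3 each, log2 fold change 1.67, limma BH-adjusted p = 0.0283). Its tandem neighbour *GOX2* (AT3G14415) rose from 16.1 ± 4.39 to 36.7 ± 5.57 FPKM (SD, n = 3 each, log2 fold change 1.19, limma BH-adjusted p = 0.0477). The coding sequences of these 2 genes are 92.4% identical with a longest shared run of 68 bases, and share no stretch of 100 bases. *PLGG1* (AT1G32080), the chloroplast carrier that exchanges glycolate and glycerate, rose from 6.36 ± 1.78 to 18.9 ± 3.62 FPKM (SD, n = 3 each, log2 fold change 1.52, limma BH-adjusted p = 0.0337). *GGT1* (AT1G23310), a peroxisomal aminotransferase that makes glycine from glyoxylate and that is named here as the last of the 5 after its values were seen, rose from 24.1 ± 3.39 to 54.1 ± 11.2 FPKM (SD, n = 3 each, log2 fold change 1.14, limma BH-adjusted p = 0.0416). The count of 5 was 4 without Col-0 A, 3 without *ice1-2* A, and 0 when library B or library C of either genotype was left out. It was also 0 without the filter on low values.

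The one-carbon folate genes carry the methylene group that the T protein delivers into other syntheses. Of 17 measured genes (18 listed), 0 passed an adjusted p of 0.05 from limma in either direction, and 4 were higher at an unadjusted p under 0.05. Of all 18858 genes tested, 1.62% passed higher and 0.27% lower, and 4043 had an unadjusted p under 0.05 in either direction. At such shares 0 is likely for a short list, so nothing is read from it. The median log2 difference of the one-carbon genes was 0.20 (0.03 after median-ratio scaling). Beside 19.8% of all genes, 4 of these 17 had every *ice1-2* library above every Col-0 library. Beside 7.39%, 1 of these 17 had every *ice1-2* library below. *SHM4* (AT4G13930), the cytosolic counterpart of *SHM1*, was the most abundant of them at 131 ± 10.1 FPKM in Col-0 and 192 ± 26.9 in *ice1-2* (SD, n = 3 each, log2 fold change 0.54, limma BH-adjusted p = 0.162). *MTHFR1* (AT3G59970), a methylenetetrahydrofolate reductase, had 89.9 ± 4.51 and 116 ± 28.8 FPKM (SD, n = 3 each, limma BH-adjusted p = 0.419), with overlapping groups. Genes that build and attach the lipoyl arm of the H protein showed 0 of 6 past the limma threshold, beside the shares of all genes given above. At an unadjusted p under 0.05 there were also 0, and the median log2 difference was 0.37 (0.20 scaled). All 6 differences were above 0. In 4 of the 6 every *ice1-2* library was above every Col-0 library, beside 19.8% of all genes. The mitochondrial acyl carrier proteins *MTACP2* (AT1G65290; 87.1 ± 11.0 and 109 ± 5.23 FPKM, SD, n = 3 each, limma BH-adjusted p = 0.321) and *MTACP1* (AT2G44620; 55.4 ± 3.29 and 74.3 ± 12.2 FPKM, limma BH-adjusted p = 0.255), on which octanoyl chains for lipoate are made, had the highest levels of this list. The partners of the L protein in the other dehydrogenase complexes showed 0 of 15 past the limma threshold, with 1 lower at an unadjusted p under 0.05, beside the same shares. Their median log2 difference was 0.06 (-0.11 scaled). Of these 15, 2 had every *ice1-2* library above every Col-0 library and 3 had every one below, beside 19.8% and 7.39%. *IAR4* (AT1G24180) and *MAB1* (AT5G50850), alpha and beta subunits of mitochondrial pyruvate dehydrogenase, had 71.9 ± 5.24 and 54.9 ± 3.27 FPKM in Col-0 and 75.4 ± 6.32 and 65.0 ± 3.73 in *ice1-2* (SD, n = 3 each, limma BH-adjusted p = 0.849 and 0.425). These partners gave no call in either direction, which is likely for any 15 genes at the shares of all genes. Whether they differ from the 9 genes was not tested.

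Markers of green cells and of pollen, both of which an anther sample could hold, were read in the same libraries. Their sums differed between genotypes in opposite directions. Nuclear genes of photosynthesis, which mark green cells, summed to 2320, 2380 and 2780 FPKM in Col-0 and to 4190, 5220 and 7000 in *ice1-2*. All 20 had a log2 difference above 0 (0.61 to 2.50, median 1.12), 5 of them passed the limma threshold higher and 0 lower, beside 1.62% and 0.27% of all genes, and 13 had every *ice1-2* library above every Col-0 library, beside 19.8%. The lowest value of any of the 20 in any library was 5.64 FPKM, so none of these markers was at 0. *RBCS2B* (AT5G38420), a Rubisco small subunit gene, rose from 10.6 ± 4.48 to 59.8 ± 15.3 FPKM (SD, n = 3 each, limma BH-adjusted p = 0.0254), and *RBCS3B* (AT5G38410), *PSAE1* (AT4G28750) and *PSAD1* (AT4G02770) rose 3.19-fold, 2.40-fold and 2.20-fold (limma BH-adjusted p = 0.0456, 0.0485 and 0.0485). The photosystem gene *PSAF* (AT1G31330) was the remaining one, named after its values were seen, at 2.20-fold (limma BH-adjusted p = 0.0468). Most of these 5 adjusted p values lay close to 0.05, and calls in the marker lists were not rerun under the alternatives below. The 6 pollen markers summed to 5380, 7270 and 6130 FPKM in Col-0 and to 3780, 5140 and 3480 in *ice1-2*. All 6 had every *ice1-2* library below every Col-0 library, beside 7.39% of all genes, with log2 differences from -0.82 to -0.46. The limma threshold was passed by 0 of the 6, beside 1.62% higher and 0.27% lower of all genes. At an unadjusted p under 0.05, 5 were lower, beside 4043 of the 18858 genes tested in either direction. The pectin methylesterase gene *VGD1* (AT2G47040) had 5690 ± 880 and 3770 ± 862 FPKM, and the calcium pump gene *ACA9* (AT3G21180) 264 ± 29.4 and 149 ± 5.73 (SD, n = 3 each, limma BH-adjusted p = 0.345 and 0.0647).

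**Figure D4:**
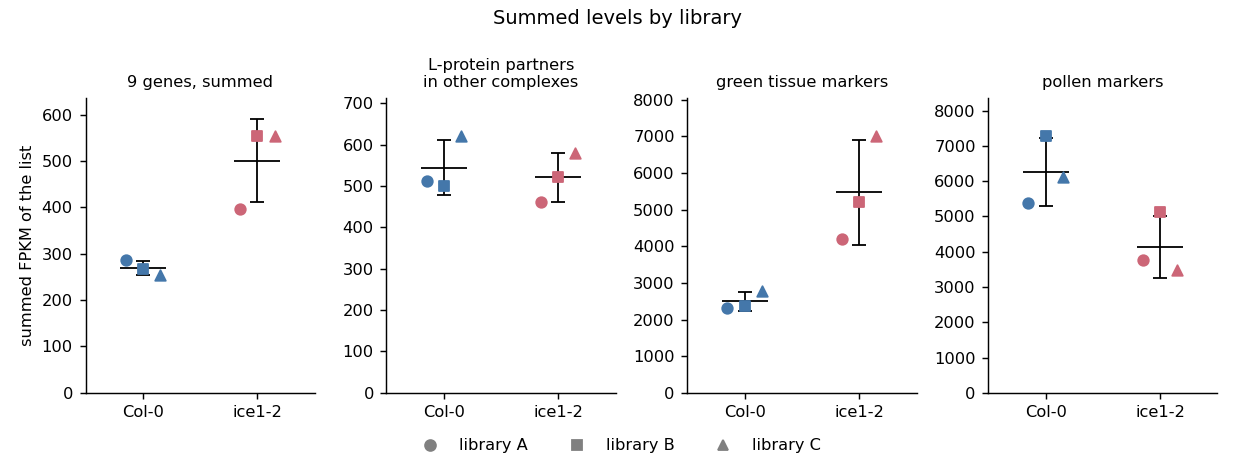
Summed FPKM in each library of the 9 genes, the L-protein partners, the green tissue markers and the pollen markers, 1 panel each on a linear axis from 0, with library letters as symbols, a line at the mean of 3 libraries and bars of 1 SD. The 9 genes sum to 255 to 286 in Col-0 and 397 to 553 in *ice1-2*, the green markers to 2320 to 2780 and 4190 to 7000, and the L-protein partners overlap between genotypes.

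The stamen and anther list (8 of 9 measured) summed to 451 to 741 FPKM in Col-0 and 652 to 1150 in *ice1-2*. Of these 8 genes, 0 passed the limma threshold, beside 1.62% higher and 0.27% lower of all genes. At an unadjusted p under 0.05, 1 was higher, beside 4043 of the 18858 genes tested in either direction. Nothing is read from counts so near those shares. The stamen identity genes *PI* (AT5G20240; 199 to 349 and 257 to 567 FPKM) and *AP3* (AT3G54340; 130 to 191 and 228 to 323 FPKM) were abundant in every library. The tapetal gene *A9* (AT5G07230), in contrast, measured 50.2, 0.0682 and 0.0644 FPKM in Col-0 and 1.43, 39.7 and 6.78 FPKM in *ice1-2*, and the tapetal regulator *MS1* (AT5G22260) was between 0 and 1.3 throughout. Libraries of the same genotype thus differed in *A9* far more than the genotypes did. The sepal and petal marker *AP1* (AT1G69120) had 0.371 to 1.72 FPKM in Col-0 and 2.01 to 3.62 in *ice1-2* (limma BH-adjusted p = 0.107). The carpel list summed to 1.3 to 3.75 and 5.15 to 8.95 FPKM. Of its 2 measured genes, 1 passed the threshold higher, beside 1.62% of all genes, and 2 genes are too few to read a share from. It was *CRC* (AT1G69180, log2 fold change 1.81, limma BH-adjusted p = 0.0326). *SHP2* (AT2G42830) had 0.839 ± 0.371 and 1.42 ± 0.970 FPKM (SD, n = 3 each, limma BH-adjusted p = 0.553). Only *CRC* had groups that did not overlap. *SHP2* overlapped, as did *SHP1* (0.388 to 1.22 and 0.678 to 1.71 FPKM) and *STK* (0.163 to 0.978 and 0.306 to 2.22 FPKM), which did not pass the filter. Sepal, petal and carpel markers were therefore low in all libraries, and *CRC* was the 1 gene among them that passed. The part of green, floral and pollen cells in the differences of the 9 genes was not tested.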

How the data were processed

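RNA of Col-0 and *ice1-2* anthers was measured in 6 libraries, 3 per genotype, grouped by the genotype in the labels. The deposited FPKM values were made by the authors with Trim Galore, TopHat2 on TAIR10, StringTie with Cufflinks-CuffMerge, and HTSEQ. The sources used here do not state the strand setting. FPKM corrects for transcript length and library size, but not for a few abundant genes that take a larger share in 1 genotype. No read counts were used here, so depth is an estimate.

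The 9 genes and all lists were chosen with earlier results of these data known. The filter, 1 FPKM or more in 3 or more libraries, left 18858 genes, and limma 3.58.1 (R 4.3.3) with a trend modelled their log2(FPKM + 0.5) on genotype alone. This fold change understates low genes. P values were BH-adjusted over all tested genes, and calls needed a log2 fold change over 1 and an adjusted p under 0.05, the limits in the study's methods. The procedure was tested on simulated data. Pairs of genes for 1 subunit were compared with an exact sign-flip test in Python 3.11.15 (scipy 1.17.1, numpy 2.4.6, pandas 2.3.3), and figures were drawn with matplotlib 3.10.9.

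Named genes were all 9 genes, *ICE1*, in each list the genes that passed, at most 4 per direction by size of change, and, where fewer than 2 passed, the 2 with the highest mean FPKM, and the 5 genes nearest in course. As a check of pairing by replicate letter, the correlations of same-letter deviations were -0.212, 0.0502 and 0.118, and those of different letters ran from -0.286 to 0.221. With 3 libraries per genotype this check cannot decide whether the letters mark pairs. Gene models and sequences came from RefSeq TAIR10.1, and all 9 genes matched by identifier. Alternatives were pseudocounts of 0.1 and 1, no filter, median-ratio scaling, each library left out, the letter as a term and no limit on the fold.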

Additional observations from a re-analysis of the deposited data

How the results depend on the processing

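Of all genes, 335 were called (291 higher and 44 lower, against 4043 at an unadjusted p under 0.05), and the count was 28 without the filter on low values, 162 after median-ratio scaling (128 higher and 34 lower), and 15 to 628 with 1 library left out, the lowest without *ice1-2* C and the highest without Col-0 A. Whether the replicate letters pair the libraries is not known, and a fit with the replicate block called 35 genes, with 0 of the 9 and 0 of the photorespiration genes. The count of 5 photorespiration genes was 0 without the filter and 0 to 4 with 1 library left out. The cause was not tested. Pseudocounts and the fold limit moved the all-gene count by less than 1.5 times. The one-carbon, lipoate and L-partner lists had 0 past the threshold in every alternative. Several alternatives called only 15 to 35 of all genes, so 0 in lists this short says nothing about stability.

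For the 9 genes, 97 of 99 log2 differences under 11 alternatives stayed within 1 SD of the reported value. Most of them could not do otherwise. The replicate block and the missing filter leave each difference unchanged, and leaving out 1 of 3 libraries cannot shift it by 1 SD. That count is therefore no evidence of stability. Of the 99 differences, 96 were above 0, the 3 others belonging to *mtLPD2*, whose 11 values ran from -0.13 to 0.16. With 1 library left out, the log2 difference was 0.48 to 0.70 for *GLDP2* over *GLDP1*, 1.47 to 1.74 for *GDH2* over *GDH1*, 0.71 to 1.06 for *GDH2* over *GDH3* and 0.68 to 0.76 for *GDH3* over *GDH1*. With 5 libraries the exact test cannot go below p = 0.0625, so those runs say nothing about stability. Depth limits *GDH1* in *ice1-2* A most, and intervals of counting error do not cover differences between plants.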

Other observations

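Among the partners of the L protein, 3 of the 5 listed genes of the branched-chain 2-oxoacid dehydrogenase, which acts in the breakdown of leucine, isoleucine and valine, had every *ice1-2* library below every Col-0 library, as did 7.39% of all genes. All 5 are named here after their values were seen. *DIN4* (AT3G13450) had 47.3, 51.4 and 101 FPKM in libraries A, B and C of Col-0 and 33.9, 39.4 and 38.4 FPKM in those of *ice1-2*. *BCE2* (AT3G06850) had 35.1, 30.0 and 61.1 in Col-0 and 27.0, 24.5 and 28.6 in *ice1-2*, and *BCDH-BETA1* (AT1G55510) had 38.3, 40.3 and 79.7 and 34.4, 37.5 and 37.5. In each of these 3 genes Col-0 C was the highest library, well above Col-0 A and B, and none passed the limma threshold (BH-adjusted p = 0.181, 0.247 and 0.392). The other 2, the E1 alpha genes, overlapped between genotypes, with means of 33.1 and 45.0 FPKM for *BCKDH-E1a1* and 9.42 and 12.6 FPKM for *BCKDH-E1a2* in Col-0 and *ice1-2*.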
